A study of Mus musculus with 2 samples.

Results

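CD98 and a set of plasma membrane amino acid transporters were examined in regulatory T (Treg) cells of injured mouse muscle, over 10 genes of the 23337 listed in the deposited count table. The genes were Slc3a2, Slc7a5, Slc7a6, Slc7a11, Slc7a1, Slc1a5, Slc1a4, Slc38a1, Slc38a2 and Slc43a1. They were chosen by name as a family with their counts in these same libraries already known, so every difference between the libraries given for them is a description and carries no test. The Treg cells came from 8-week-old male mice with the genetic background Foxp3-IRES-GFP/C57BL/6. Cardiotoxin, a venom toxin that destroys muscle fibres, was injected into leg muscles of both groups, together with 0.3 ug of recombinant IL-33 in one group and PBS in the other. Muscles were taken on day 4, and 5000 Treg cells were sorted per library. Each group held 1 library, and how many mice went into each is not given in the sources used here. The spread between mice is therefore unknown, and "higher" and "lower" set one library against the other.

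CD98 is a pair of proteins in the plasma membrane. Its heavy chain, encoded by Slc3a2, carries no transport itself but brings a light chain to the cell surface, to which it is joined by a disulphide bond, and it also binds integrin beta chains. The light chains come from the Slc7 family and exchange amino acids: the one encoded by Slc7a5 (LAT1) takes up leucine and other large neutral amino acids in return for glutamine that other carriers such as the Slc1a5 product (ASCT2) have brought in. In activated T cells these carriers feed protein synthesis and the growth kinase complex mTORC1, and Treg cells depend on that supply to expand.

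The IL-33 library held 4080791 counts and the PBS library 1573707, a depth ratio of 2.59. Levels are given as CPM, a gene's count as parts of a common library total, and a single read is worth 0.245 CPM at the depth of the first library and 0.635 CPM at that of the second. Where a pair of values follows without a label, the IL-33 library comes first. Genes reaching 5 CPM in a library were compared, on log2 values of CPM plus 1, and a gene is said to be 2-fold higher or lower when that value is at least 1 from 0. A gene over 5 CPM in 1 library alone passed through the library where it was higher, so its direction follows from the rule. By this rule 15.5% of the 9005 genes compared were higher in the IL-33 library and 16.3% were lower, 31.8% in all. Intervals in parentheses are exact 95% intervals for counting error only, since each group held 1 library. Amplified reads without molecular identifiers are not independent molecules, so these intervals can be too narrow even for counting error.

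Several markers of the labelled cell type were abundant, and Foxp3 was not. Ctla4, an inhibitory receptor of Treg cells, stood at 6186 and 6246 CPM and Ikzf2 at 1681 and 1925 CPM, whereas Foxp3, the defining transcription factor, had 40 counts and 1 count. The 9 T and Treg markers summed to 11973 and 12007 CPM, with Ctla4 the largest part of both sums, and all 9 passed 5 CPM. Foxp3, at 9.80 and 0.635 CPM, passed through the IL-33 library alone. It was the 1 marker of this list that was 2-fold higher, with a ratio of 15.4 (2.61 to 624). Of the 6 fibroblast markers, 2 passed, and the list summed to 0 and 66.1 CPM, with Col3a1 at 0 against 78 counts, Dcn at 0 against 24, and Col1a1, Col1a2 and Lum at 0 in both. Of the 9 monocyte and macrophage markers, 2 passed, Lyz2 (19.1 and 38.8 CPM) and Itgam (16.2 and 7.63 CPM), the list sums were 42.1 and 50.2 CPM, and Cd68 was at 0 in both. The sums were 14.7 and 19.7 CPM for 4 dendritic cell markers (2 passed, Itgax at 0 and 12.1 CPM, Xcr1 at 10.3 and 7.63 CPM, Flt3 at 0 in both) and 32.3 and 26.7 CPM for 4 B cell markers (1 passed, Cd79b, at 29.7 and 23.5 CPM). They were 21.6 and 13.3 CPM for 2 CD8 T cell markers (Cd8b1 alone, since Cd8a was at 0), 49.3 and 52.1 CPM for 3 endothelial markers (2 passed, Pecam1 at 48.5 and 45.1 CPM, Cdh5 at 0.735 and 6.99 CPM, Kdr at 0) and 4.66 and 9.53 CPM for 9 muscle markers (1 passed, Mylpf, at 4.17 and 7.63 CPM, with Acta1 at 1 and 2 counts and Ckm and Des at 0). The 3 neutrophil markers found summed to 4.41 and 5.72 CPM, from Csf3r alone, with S100a8 at 0, and both NK cell markers, Ncr1 and Klrb1c, were at 0. The part of these other cells in the differences below was not tested.

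Slc3a2 stood 2.32-fold higher in the IL-33 library, while the 6 other genes that passed 5 CPM lay below the PBS library's level, from Slc38a1 at 0.869 of it to Slc7a5 at 0.402. At 2-fold, 1 gene was higher (Slc3a2), 1 was lower (Slc7a5) and 5 were within 2-fold. The shares of all genes given above are of like size or larger, so these counts do not set the family apart. The median log2 fold over the 7 genes was -0.34, against -0.08 over all genes compared. Scaling by TMM, a trimmed mean over genes, adds 0.12 to every log2 fold and left the sign of each of the 7 as it was. In bulk RNA, fewer cells that express a gene and less of its RNA per cell cannot be told apart.

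**Figure D1:**
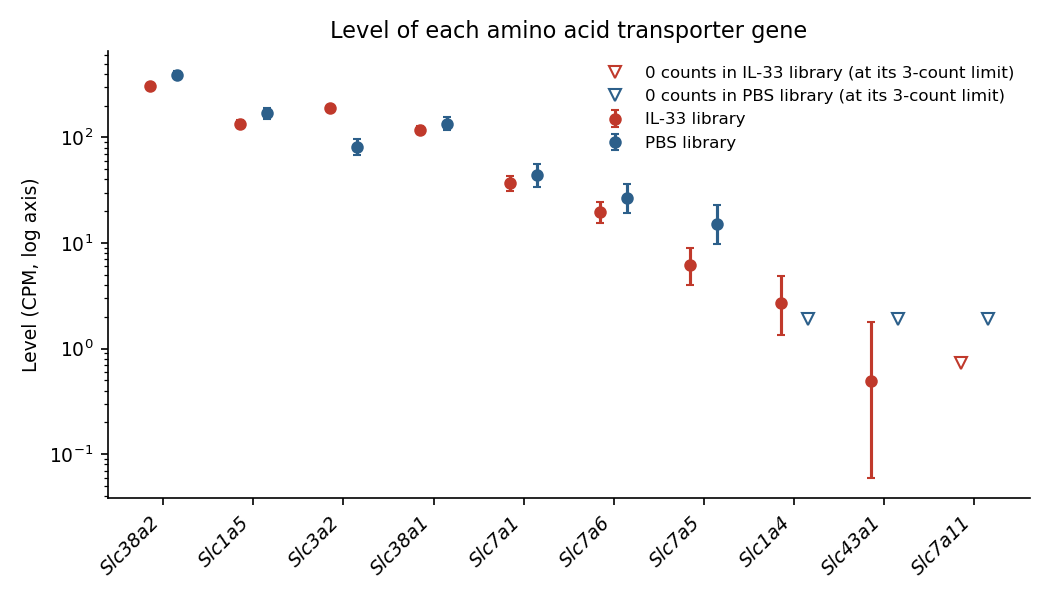
Level of each of the 10 genes in CPM on a log axis, with points for the IL-33 and PBS libraries and bars for the exact 95% counting interval. Open triangles mark genes at 0 counts, drawn at the level that 3 counts would give (0.735 and 1.91 CPM). Slc3a2 is the one gene over 5 CPM whose IL-33 point lies above its PBS point.

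Slc3a2 (ENSMUSG00000010095.13, chr19:8706882-8723369 on GRCm38, minus strand) had 775 and 129 counts. These equal 189.9 CPM (177 to 204) and 82.0 CPM (68.4 to 97.4), and the intervals do not overlap. The ratio was 2.32 (1.92 to 2.81), so its lower limit falls just under 2-fold. Abundance matters for such a ratio, because thinly counted genes scatter widely: 1054 genes had mean levels between 100 and 200 CPM, as Slc3a2 does, and 3.61% of them were 2-fold higher in the IL-33 library. Slc3a2 took 23.2% of all counts of the 10 genes with IL-33 and 9.46% with PBS. Its place among all genes by CPM was 1004 in the first and 2486 in the second. The 3 genes nearest to it in log2 level over the 2 libraries were Zbp1, an interferon-inducible sensor of nucleic acids (distance 0.0417), Ctsd, which encodes the lysosomal protease cathepsin D (0.0652), and Cdk9, a kinase that releases paused RNA polymerase II (0.112). They had 797 against 128, 779 against 135 and 718 against 131 counts, and with 2 libraries such likeness carries little information.

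The promoter bases shown here serve to place the family's only higher gene beside its members that were hardly detected. The RefSeq promoter table for GRCm38.p6, with 250 bases before and 50 after each start, holds 7 of the 10 genes, Slc7a5, Slc1a5 and Slc38a1 being absent. It was searched on both strands for TGATGNAA, the core of the element bound by ATF4 with its C/EBP partners, and for CACGTG, the E-box bound by MYC with MAX. No match of one overlapped a match of the other in the windows of these genes. TGATGNAA is in 3.97% of the 32851 promoters and CACGTG in 7.15%. In the sequences below, capitals mark the matches, and all are written 5′ to 3′ on the gene's strand. The first ends at the base before the RefSeq start of Slc3a2 and holds neither motif. That start lies inside the span of Slc3a2 given above, in which GENCODE also places starts further upstream.
Slc3a2 (chr19:8713898-8714017, minus strand): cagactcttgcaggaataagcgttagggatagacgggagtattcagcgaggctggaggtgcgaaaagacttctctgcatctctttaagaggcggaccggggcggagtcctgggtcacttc
Slc7a11 (chr3:50443642-50443690, minus strand): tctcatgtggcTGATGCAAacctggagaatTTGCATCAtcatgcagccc
Slc1a4 (chr11:20332699-20332728, minus strand): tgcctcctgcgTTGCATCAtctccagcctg
Slc43a1 (chr2:84840248-84840275, plus strand): gggtctccctcCACGTGgcagccgtggg

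Slc7a11 held 2 matches to TGATGNAA, the second on the opposite strand, Slc1a4 held 1 across its start, also on the opposite strand, and Slc43a1 held 1 E-box. No match was present in the windows of Slc3a2, Slc7a1, Slc7a6 or Slc38a2. Of the 7 genes searched, 2 held TGATGNAA and 1 held CACGTG, and these 3 did not reach 5 CPM in either library. The levels were known beforehand, and 2 separate motifs over 7 genes cannot decide whether a motif goes with level. Slc7a5, Slc1a5 and Slc38a1, which passed 5 CPM, could not be searched, and a link between motif and level was not tested. The bases shown for Slc43a1 lie inside that gene's GENCODE span. A match is a run of letters and not a measured site.

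Among the light chains that pair with the Slc3a2 product, Slc7a5 and Slc7a6 were the ones counted in both libraries. Slc7a5 (chr8:121881150-121907694, minus strand) had 25 and 24 counts. With the depth ratio of 2.59 these equal counts become 6.13 CPM (3.97 to 9.04) and 15.3 CPM (9.77 to 22.7), a ratio of 0.402 (0.220 to 0.735). The intervals do not overlap, but differences of this size were common at so low a level: 2738 genes had mean levels between 5 and 20 CPM, and 26.2% of them were 2-fold lower in the IL-33 library. With a pseudocount of 5 in place of 1, the log2 fold of Slc7a5 went from -1.19 to -0.86 and no longer counted as 2-fold.

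Slc7a6 (chr8:106168857-106198706, plus strand) encodes y+LAT2, a light chain that trades cationic amino acids such as arginine for neutral ones with sodium. It had 80 and 42 counts, which equal 19.6 and 26.7 CPM. The ratio of 0.735 (0.4995 to 1.09) holds 1, so the libraries did not differ beyond counting error. Slc7a11 (chr3:49892526-50443614, minus strand), the light chain of the cystine-glutamate exchanger xCT, had 0 counts in both libraries, which allows up to 0.735 and 1.91 CPM. Of the remaining light chain genes, Slc7a7 had 9 counts in the IL-33 library, Slc7a10 had 5 and Slc7a8 had 1, and the PBS library had 0 of each. These were looked up because they pair with Slc3a2. Slc7a7 stood at 1.16 times the level of 3 PBS counts, which leaves out error in its own 9 counts and sets no lower limit.

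**Figure D2:**
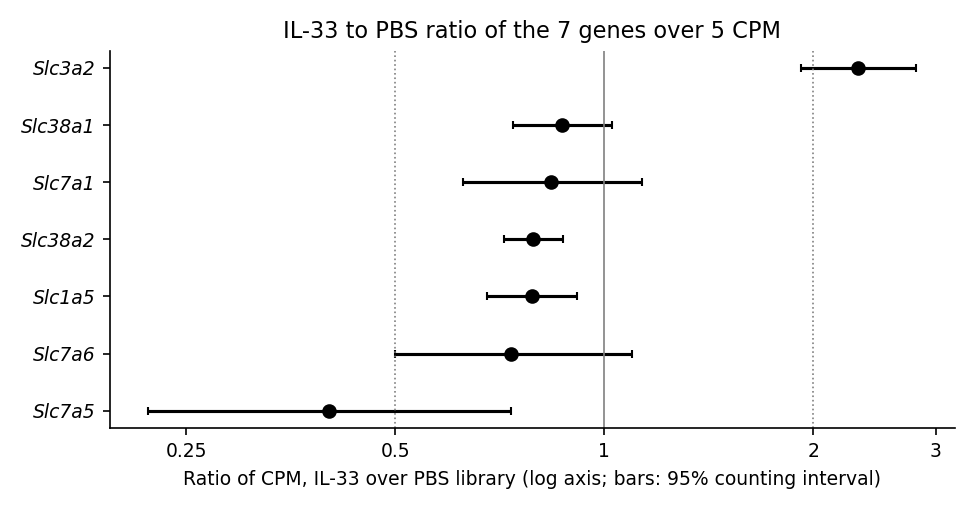
Ratio of CPM in the IL-33 library over the PBS library on a log axis for the 7 genes over 5 CPM, with exact 95% counting intervals as bars, a solid line at 1 and dotted lines at 2-fold. Slc3a2 at 2.32 lies right of 1 and Slc7a5 at 0.402 left of 1, and the intervals of Slc38a1, Slc7a1 and Slc7a6 cross 1.

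Heavy and light chain counts can also be set against each other inside a library, which removes the scaling between libraries. For every 100 counts of Slc3a2 there were 3.23 counts of Slc7a5 with IL-33 and 18.6 with PBS, a ratio of ratios of 0.174 (0.0921 to 0.329). For Slc7a6 the values were 10.3 and 32.6 counts, 0.318 (0.205 to 0.495). Both are set against Slc3a2, so its own difference between the libraries enters each. Divided by transcript length, Slc7a5 and Slc7a6 together reached 10.3% of the Slc3a2 level with IL-33 and 39.3% with PBS. Heavy chain RNA thus exceeded the RNA of these light chains in both libraries, and by more in the IL-33 library. Slc7a5 against Slc7a6 had a ratio of ratios of 0.549 (0.264 to 1.14), and the relation of these light chains to each other did not differ beyond counting error.

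**Figure D3:**
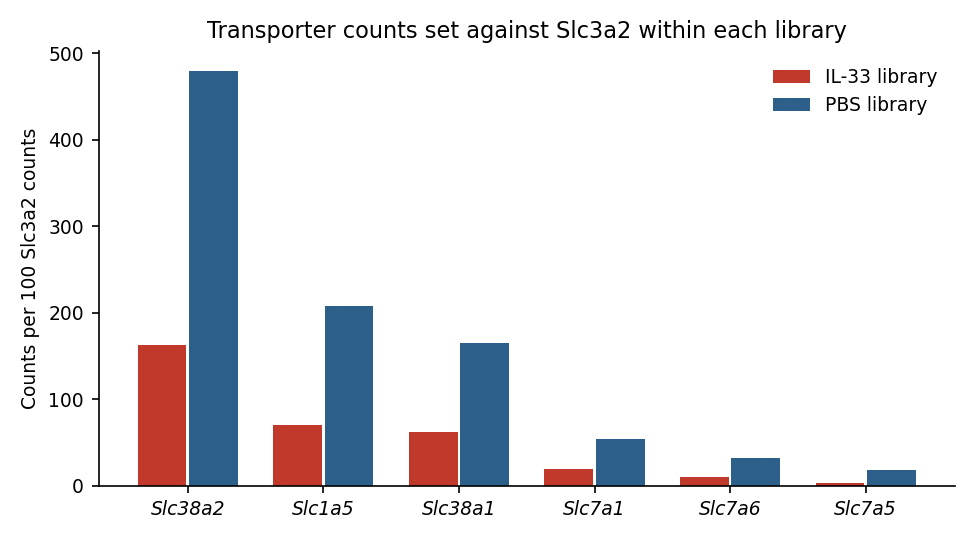
Counts of each of 6 transporter genes for every 100 counts of Slc3a2, as bars for the IL-33 and PBS libraries, with no error drawn. Each gene's bar is lower in the IL-33 library, from 163 against 479 for Slc38a2 to 3.23 against 18.6 for Slc7a5. Lower bars follow from the choice of Slc3a2, the only family gene over 5 CPM that was higher with IL-33.

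The cationic amino acid transporter gene Slc7a1 (chr5:148327410-148399904, minus strand) encodes CAT1, the main arginine and lysine carrier of many cells, and needs no heavy chain. It had 150 and 69 counts, or 36.8 and 43.8 CPM. The ratio was 0.838 (0.626 to 1.13), within counting error.

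The carriers of glutamine and small neutral amino acids that passed 5 CPM lay slightly lower in the IL-33 library. Slc38a2 (chr15:96687392-96699730, minus strand) encodes SNAT2, a sodium-coupled carrier known to be induced when amino acids run short. It had 1265 and 618 counts, 310 and 393 CPM, a ratio of 0.789 (0.716 to 0.870). Slc1a5 (chr7:16781340-16798274, plus strand), the ASCT2 gene, had 546 and 268 counts, 134 and 170.3 CPM, a ratio of 0.786 (0.678 to 0.913). For both, the counting interval leaves out 1.

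Slc38a1 (chr15:96571418-96642913, minus strand) encodes SNAT1, another sodium-coupled glutamine carrier, and lies 44.5 kb from Slc38a2. It had 480 and 213 counts, 118 and 135 CPM, and its ratio of 0.869 (0.738 to 1.03) holds 1. Summed, Slc1a5, Slc38a1 and Slc38a2 stood at 561 and 698 CPM, a ratio of 0.804 (0.748 to 0.865). That interval leaves out the choice of scaling. With a correction for transcript length, their log2 folds went from -0.35 to -0.25, from -0.20 to -0.04 and from -0.34 to -0.18. This correction drew on 500 genes neighbouring in length and differs from dividing a level by transcript length.

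Their proportions to each other hardly differed between the libraries. For every 100 counts of Slc38a2 there were 43.2 and 43.4 counts of Slc1a5, a ratio of ratios of 0.995 (0.833 to 1.19). Slc38a1 stood at 37.9 and 34.5 counts, 1.10 (0.909 to 1.34). Against Slc3a2, by contrast, the ratio of ratios was 0.341 (0.274 to 0.422) for Slc38a2, 0.339 (0.265 to 0.432) for Slc1a5, 0.375 (0.291 to 0.483) for Slc38a1 and 0.362 (0.254 to 0.518) for Slc7a1. These values share Slc3a2 as denominator and largely restate its own difference, so they are not separate results. An interval that leaves out 1 is not rare in these data. It held for 4 of the 7 family genes (Slc3a2, Slc7a5, Slc1a5 and Slc38a2) and for 63.7% of all genes compared.

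The remaining neutral carriers were near or below detection. Slc1a4 (chr11:20302180-20332713, minus strand) encodes ASCT1, a carrier of alanine, serine and cysteine. It had 11 and 0 counts, or 2.70 CPM (1.35 to 4.82) and 0 CPM (0 to 2.34). These intervals overlap, so the libraries were not told apart. Slc43a1 (chr2:84838850-84863594, plus strand), the gene of the leucine carrier LAT3, had 2 counts and 0, too few for a comparison.

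Over the 10 genes, the summed level was 817 and 866 CPM, a ratio of 0.943 (0.885 to 1.01). The direction of the sum is not settled, since the ratio was 1.03 with TMM scaling and 1.07 without Slc38a2. Without Slc3a2, left out after the values were seen, the sums were 627 and 784 CPM, a ratio of 0.800 (0.747 to 0.857).

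**Figure D4:**
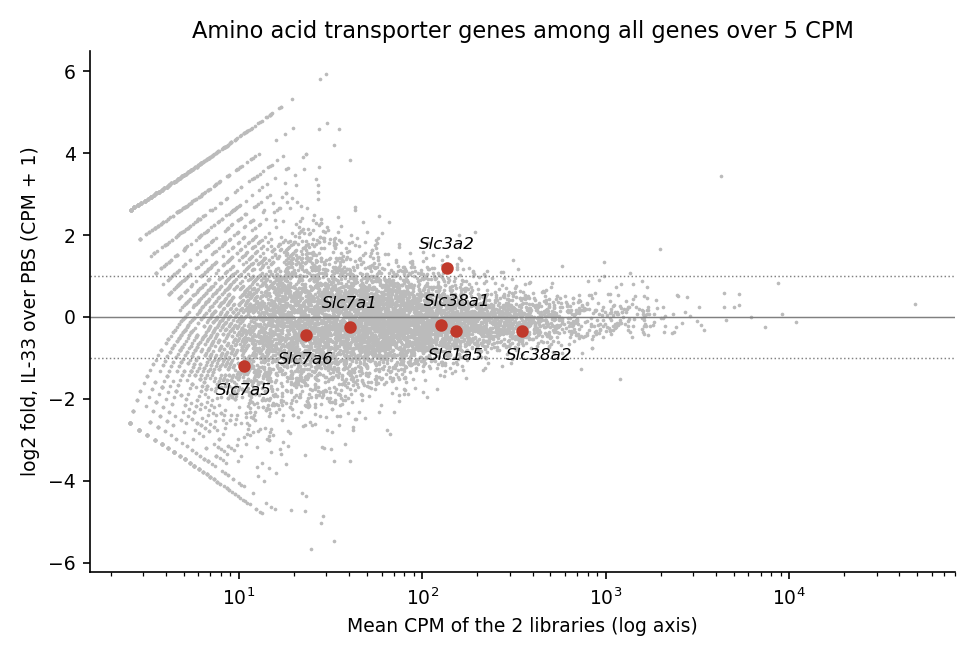
log2 fold of the IL-33 over the PBS library (CPM plus 1) against mean CPM on a log axis for the 9005 genes over 5 CPM (grey) and the 7 family genes among them (red). Slc3a2 lies at 1.20 near the upper edge of genes of its level, and Slc7a5 at -1.19 within the wide scatter of thinly counted genes.

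Per kb of the longest protein-coding transcript, the order of the genes differed between the libraries in the place of Slc3a2. In the IL-33 library Slc3a2 came first at 67.5 CPM per kb (62.8 to 72.4) and Slc38a2 second at 66.5 (62.9 to 70.3), and these did not differ beyond counting error. Slc1a5 followed at 48.4, Slc38a1 at 16.2, Slc7a6 at 5.23, Slc7a1 at 5.12 and Slc7a5 at 1.74 CPM per kb. In the PBS library Slc38a2 led at 84.3 CPM per kb (77.8 to 91.2), then Slc1a5 at 61.6 (54.5 to 69.4), Slc3a2 at 29.1 (24.3 to 34.6) and Slc38a1 at 18.6 (16.2 to 21.3). Slc7a6 at 7.12, Slc7a1 at 6.11 and Slc7a5 at 4.34 CPM per kb ended the order, and neighbours among these 3 did not differ beyond counting error. Slc7a6 and Slc7a1 did not differ in the IL-33 library either. The tie of the first 2 depends on the length used: by the exon union, Slc3a2 stood at 53.8 and Slc38a2 at 35.1 CPM per kb in the IL-33 library. By that length Slc3a2 again took the first and the third place, and Slc7a5 (4.11) passed Slc7a1 (3.80) in the PBS library.

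Among 45 other amino acid transporter genes, 36 did not reach 5 CPM and 25 had 0 counts in both libraries. Together the 45 summed to 283 and 321.5 CPM, below the sum of the family. Low or absent counts were common in the whole table: of 23337 genes, 9005 reached 5 CPM, and 11068 and 9763 were counted at all. Of the 9 other transporter genes that passed, 0 were higher and 3 were lower, with a median log2 fold of -0.19. Over all genes compared, 15.5% were higher and 16.3% lower. The counts of this list and those that follow are to be read against these shares. The most abundant was Slc6a6, a taurine carrier, at 127 and 145 CPM, a ratio of 0.878 (0.750 to 1.03), and next was Slc43a2 (LAT4) at 91.2 and 93.4 CPM. Slc38a9, the lysosomal arginine sensor of mTORC1, had 27 and 26 counts, a ratio of 0.400 (0.225 to 0.714). Slc7a14, a lysosomal member of the Slc7 family, had 56 and 24 counts, a ratio of 0.900 (0.549 to 1.52). The 2 others that were lower, named after their values were seen, were the aromatic amino acid carrier gene Slc16a10 (5 and 21 counts) and Slc38a6 (17 and 18 counts). Slc16a10 and Slc38a6 passed 5 CPM through the PBS library alone. At a floor of 20 CPM, 0 genes of this list were lower.

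**Figure D5:**
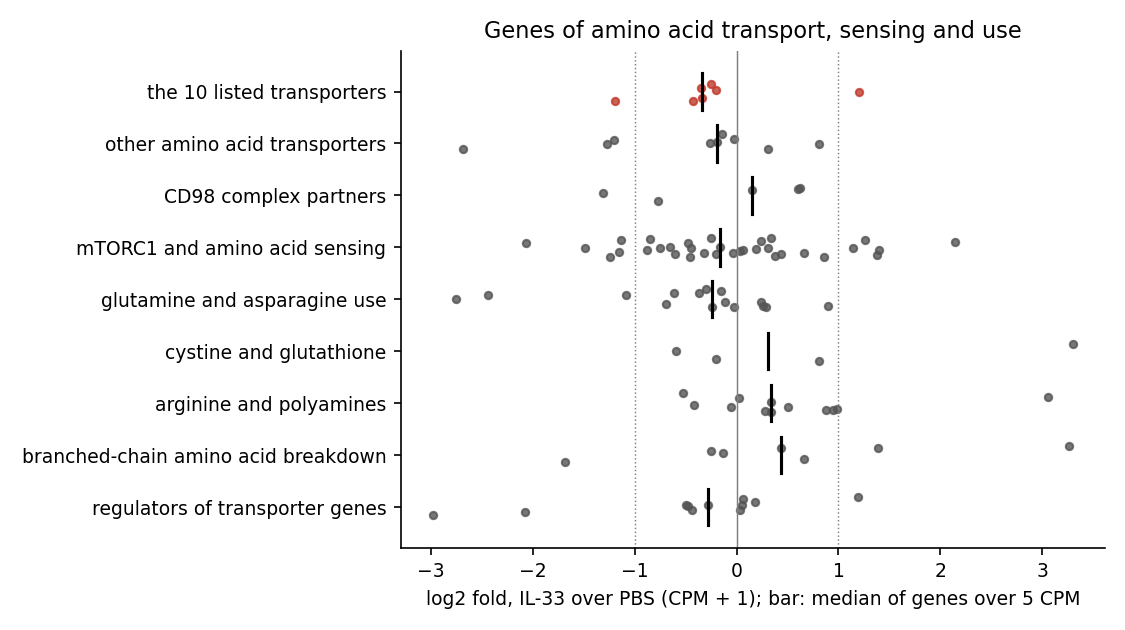
log2 fold of the IL-33 over the PBS library (CPM plus 1) for each gene over 5 CPM in the family (red) and in 8 other lists of amino acid transport, sensing and use (grey), with a bar at each median and dotted lines at 2-fold. Vertical position within a list has no meaning. The family's median of -0.34 is the lowest of the 9 lists, but it rests on 7 genes. It was -0.18 with a correction for transcript length. The medians of the other lists are not given with that correction, so the order under it is unknown. Every list holds at least 1 gene beyond 2-fold, some lists on one side only.

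Of 5 genes whose products associate with CD98 at the membrane, 0 were higher and 1 was lower, with a median of 0.15. Itgb1, the integrin beta1 chain that the heavy chain binds, stood at 426 and 280.2 CPM, a ratio of 1.52 (1.37 to 1.69), and for every 100 of its counts there were 44.5 and 29.3 counts of Slc3a2. Itgb3 stood at 200.5 and 180.5 CPM. The lactate carrier gene Slc16a1 was lower, at 25.5 and 64.8 CPM (ratio 0.393, 0.296 to 0.522), and Lgals3, which encodes a galectin that binds CD98 sugars, had a ratio of 0.581 (0.464 to 0.730).

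Of 33 genes compared in the mTORC1 and amino acid sensing list, 5 were higher, 5 lower and 23 within 2-fold, with a median of -0.16. These counts are near the shares over all genes, 15.5% higher and 16.3% lower. Mtor, the kinase itself, had 47 and 81 counts, a ratio of 0.224 (0.153 to 0.324). Subunits of the GATOR complexes that regulate it differed in both directions. Mios, at 162 against 13 counts (4.81, 2.73 to 9.22), and Nprl2, at 108 against 15 counts (2.78, 1.61 to 5.13), were higher. Among other subunits, named after their values were seen, Seh1l was higher at 2.26, Wdr59 was lower at 14 against 18 counts (0.300, 0.138 to 0.638), and Depdc5 (0.526), Nprl3 (1.16) and Wdr24 (1.40) were within 2-fold. Wdr59 passed 5 CPM through the PBS library alone. At a floor of 20 CPM, 3 genes of the whole list were higher and 2 lower. The abundant members Sesn1, a leucine-responsive inhibitor (ratio 0.553), Hbxip, the Lamtor5 gene (0.730), Sec13 (1.58) and Fnip1 (0.632) were within 2-fold.

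Genes that use glutamine and asparagine had 0 higher and 3 lower of 15, with a median of -0.24. Glud1, which turns glutamate into alpha-ketoglutarate, had a ratio of 0.848, Got1 1.23, Ctps2 0.775, Gfpt1 0.619 and Aldh18a1, an enzyme of proline synthesis, 1.89 (1.43 to 2.53). The 3 lower genes, named after their values were seen, were thinly counted: Asns, which makes asparagine, had 11 and 30 counts (0.141, 0.0639 to 0.290), Ctps had 27 and 24, and Gpt2 had 0 and 9. Asns and Gpt2 passed 5 CPM through the PBS library alone. At a floor of 20 CPM, 0 genes of this list were lower.

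Of 11 genes of cystine and glutathione metabolism, 4 passed 5 CPM and 4 had 0 counts in both libraries. Of the 23337 genes listed, 9005 passed. Those of this list that passed held 1 higher and 0 lower, with a median of 0.30. The higher gene, Gclm, passed 5 CPM through the IL-33 library alone. At a floor of 20 CPM, 0 genes of this list were higher. Gclm and Gclc encode the subunits of glutamate-cysteine ligase, the first step of glutathione synthesis. Gclm had 36 counts against 0, 4.63 times the level of 3 PBS counts. Gclc had 363 against 79, a ratio of 1.77 (1.39 to 2.29). Gsr had a ratio of 0.662 (0.541 to 0.812) and Chac2 of 0.859 (0.510 to 1.49).

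Genes of arginine and polyamine metabolism, which the Slc7a1 carrier supplies, had 1 higher and 0 lower of the 12 that passed 5 CPM, with a median of 0.34. Of the 19 genes listed, 6 had 0 counts in both libraries: Arg1, Arg2, Nos2, Ass1, Amd1 and Amd2. Odc1, the first enzyme of polyamine synthesis, was the most abundant at 920.4 and 1228 CPM, a ratio of 0.749 (0.709 to 0.792). Sat1, Azin1 and Sms had ratios of 1.27, 1.22 and 1.42. Dhps, which starts the hypusine modification of eIF5A, stood at 50.2 and 24.8 CPM (2.03, 1.43 to 2.93; log2 fold 0.99), and Eif5a at 84.8 and 45.8 CPM (1.85). Smox had a ratio of 2.01 and a log2 fold of 0.95. The gene counted as higher was Dohh, the second hypusine enzyme, at 30 counts against 0, named after its values were seen. It stood at 3.86 times the level of 3 PBS counts and passed 5 CPM through the IL-33 library alone. At a floor of 20 CPM, 0 genes of this list were higher.

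Breakdown of branched-chain amino acids, the main cargo of LAT1, had 2 higher and 1 lower of 7 genes, with a median of 0.44. Dbt, a subunit of the branched-chain ketoacid dehydrogenase, had 88 and 12 counts (2.83, 1.54 to 5.68), and Bcat2, the mitochondrial aminotransferase, 15 and 22 (0.263, 0.127 to 0.530). Bcat1, the cytosolic aminotransferase, named after its values were seen, had 35 counts against 0, 4.50 times the level of 3 PBS counts. Bcat1 passed 5 CPM through the IL-33 library alone, and Bcat2 through the PBS library alone. Dld and Ppm1k had ratios of 0.914 and 1.60.

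Of 11 genes for factors known to act on transporter genes, 1 was higher and 2 were lower, with a median of -0.28. Myc, which is known to drive transporter genes in activated T cells, had 188 and 31 counts (2.34, 1.59 to 3.54). Atf4, which is known to induce them when amino acids are short, stood at 156 and 190.0 CPM (0.820, 0.714 to 0.944). Hif1a stood at 1033 and 995.7 CPM, and Cebpb, Atf3 and Eif2ak3 had ratios of 1.02, 0.733 and 0.713. The lower genes, named after their values were seen, were Eif2ak4, the sensor kinase of uncharged tRNA (4 and 23 counts), and Trib3, a target of ATF4 (3 and 10 counts). Eif2ak4 and Trib3 passed 5 CPM through the PBS library alone. At a floor of 20 CPM, 1 gene of this list was higher and 0 were lower.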

How the data were processed

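The authors deposited raw counts, whole numbers per gene symbol, in 1 table with 1 column for each library. The submitters' processing notes name mm10, Cufflinks 2.2.1 and TopHat2 2.0.10 without their roles. For the counting program, annotation and strand setting nothing is given in the sources used here. By GENCODE M21 (GRCm38, the assembly of mm10), no exon of the 10 genes overlaps an exon of another gene. Each column matched 1 sample by name, 0 columns were unused and 0 rows lacked a name.

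CPM, ratios with exact conditional (Clopper-Pearson) 95% intervals, Poisson intervals of levels and conditional odds ratios within libraries were computed in Python 3.11.15 with scipy 1.17.1. A count of 0 was bounded by 3 counts. Folds against that limit used the observed level of the other library, without its counting error. TMM factors came from edgeR 4.0.16, used for scaling alone. With 1 library per group no test was made. The computation was tested on simulated data. The 10 genes, the 8 other lists and the 10 marker lists were chosen with earlier results of these data known. Named from each list were the 4 most abundant genes over 5 CPM, the 3 farthest from 0 among those at 20 CPM or more and, of markers, the 2 most abundant. Lengths were found for 22832 symbols, some through RefSeq synonyms. Some genes named by this rule are not reported here.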

Additional observations from a re-analysis of the deposited data

How the results depend on the processing

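No paired analysis was possible because each group held 1 library. TMM scaling adds 0.12 to every log2 fold. Under TMM, totals without Malat1 and Rn45s, a correction for transcript length and pseudocounts of 0.25 and 5, 0 of 35 recomputed folds of the 7 genes changed sign, and 1 moved beyond its counting interval, Slc38a2 at -0.18 with the length correction. The count of lower genes went from 1 to 0 with a pseudocount of 5, a floor of 20 CPM or a 3-fold threshold. The count of higher genes was 0 at 3-fold and 2 with no floor, where Slc1a4 joined. The summed ratio was 1.03 under TMM, 1.07 without Slc38a2 and 0.800 without Slc3a2. At a floor of 20 CPM the other lists held 5 higher and 3 lower genes in place of 10 and 15. Depth limits Slc7a5, at 25 and 24 counts, and the 3 genes under 5 CPM.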
